A study of Mus musculus with 24 samples.

Results

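The Myc family genes of the mouse are Myc, Mycn and Mycl. They were taken here as the called regions that overlap 3 windows of the mm10 genome by at least 1 bp, which are chromosome 15 from 61980000 to 61995000 for Myc, chromosome 12 from 12931000 to 12947000 for Mycn and chromosome 4 from 122990000 to 123008000 for Mycl. The windows are 15, 16 and 18 kb long, and each holds 1 annotated gene. They contained 52 of the 1811308 regions in 6 peak lists. The lists come from chromatin immunoprecipitation followed by sequencing (ChIP-seq) in E14 mouse embryonic stem cells, grown in medium with serum and LIF. All 6 libraries are labelled as controls of the Nelfb deg genotype, in which NELFB carries an HA tag and a degron that responds to dTAG-13. The protocol names DMSO and dTAG-13 as additions to the medium, without saying which the controls received. There were 2 libraries each of NELFB:HA (precipitated through the tag), NELFE and SPT5 (precipitated with an antibody named for DSIF), out of 24 samples in the series. The other 18 samples are not analysed here, so the effect of removing NELFB is not described. The labels do not say whether the line is a single clone or whether same-antibody libraries came from separate cultures, so the spread between libraries may be technical. A peak list holds no expression values, and the cell type could not be checked against marker genes.

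MYC proteins are transcription factors that pair with MAX through a helix-loop-helix and leucine zipper domain and bind E-box DNA. They raise the expression of genes for growth, ribosome production and the cell cycle, and Myc and Mycn have overlapping roles in the self-renewal of embryonic stem cells. NELF, of which NELFB and NELFE are subunits, and DSIF, of which SPT5 is a subunit, hold RNA polymerase II shortly after initiation. When P-TEFb phosphorylates both, NELF leaves and SPT5 travels on with the elongating polymerase. Transcription of Myc has long been studied as a case of control after initiation.

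Sequences just upstream of the starts are shown for the members with an entry in the RefSeq promoter table (build GRCm38.p6, the assembly also called mm10), since the strongest regions lie over them. The table had entries for Mycn and Mycl, and none for Myc. Each run is the 250 bases before the annotated start, 5′ to 3′ on the gene's strand, with matches to any of 4 motifs on either strand in capitals. The Mycn run is chr12:12941837-12942086 on the minus strand and the Mycl run is chr4:122995681-122995930 on the plus strand. The Mycl run lies inside the annotated gene span, which begins at 122995588, before the start given in the promoter table.
Mycn: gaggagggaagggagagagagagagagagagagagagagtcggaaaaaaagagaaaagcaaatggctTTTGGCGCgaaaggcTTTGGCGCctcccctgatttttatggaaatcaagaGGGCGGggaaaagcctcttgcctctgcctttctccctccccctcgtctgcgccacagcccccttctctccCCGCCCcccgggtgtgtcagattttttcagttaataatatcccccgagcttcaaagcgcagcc
Mycl: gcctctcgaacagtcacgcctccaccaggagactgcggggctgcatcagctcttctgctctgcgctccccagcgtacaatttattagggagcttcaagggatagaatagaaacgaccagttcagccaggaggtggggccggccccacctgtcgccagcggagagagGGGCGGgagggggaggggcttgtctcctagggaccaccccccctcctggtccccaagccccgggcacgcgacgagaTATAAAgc

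The motifs searched were TTTGGCGC (a form of the E2F site), GGGCGG (the GC box), TATAAA (the TATA box) and CACGTG (the E-box that MYC and MAX bind, which is its own reverse complement). Matches of different motifs did not overlap in these runs. The Mycn run held TTTGGCGC in 2 copies, whose first bases lie 183 and 168 bases before the start, and 0.417% of 32851 promoter runs of this length hold at least 1 copy. It also held GGGCGG at 133 bases and its reverse complement at 63 bases before the start, a motif found in 32.7% of runs. The Mycl run held GGGCGG at 84 bases and TATAAA at 8 bases before the annotated start, and TATAAA is found in 12.4% of runs. CACGTG, found in 6.02% of runs, had no match in either. G and C made up 54.8% of the Mycn run and 63.6% of the Mycl run, against a median of 52.4% over all runs. CG dinucleotides numbered 11 and 14, against a median of 6.

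Myc and Mycn each had a region over the start that passed the authors' deposited q-value at 0.01 or less in 6 of 6 lists, and Mycl had one in 3 lists. In each window and list the region with the highest pileup (mean ChIP coverage, scaled by the authors) is called the main region. The 18 main regions all covered the gene's start, which for Myc is the lower end of its annotated span. Of the 52 regions, 15 passed the q-value, and these were all main regions. The other 34 had fold enrichments over input of 1.44 to 2.06, and none passed. Across all 6 lists the median fold of a region was 1.64 to 1.87, a range that falls inside that of these 34. A q-value of 0.01 or less was reached by 2.97% and 1.85% of all regions in the NELFB:HA lists, 5.52% and 5.42% in the NELFE lists and 1.51% and 6.08% in the SPT5 lists.

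**Figure D1:**
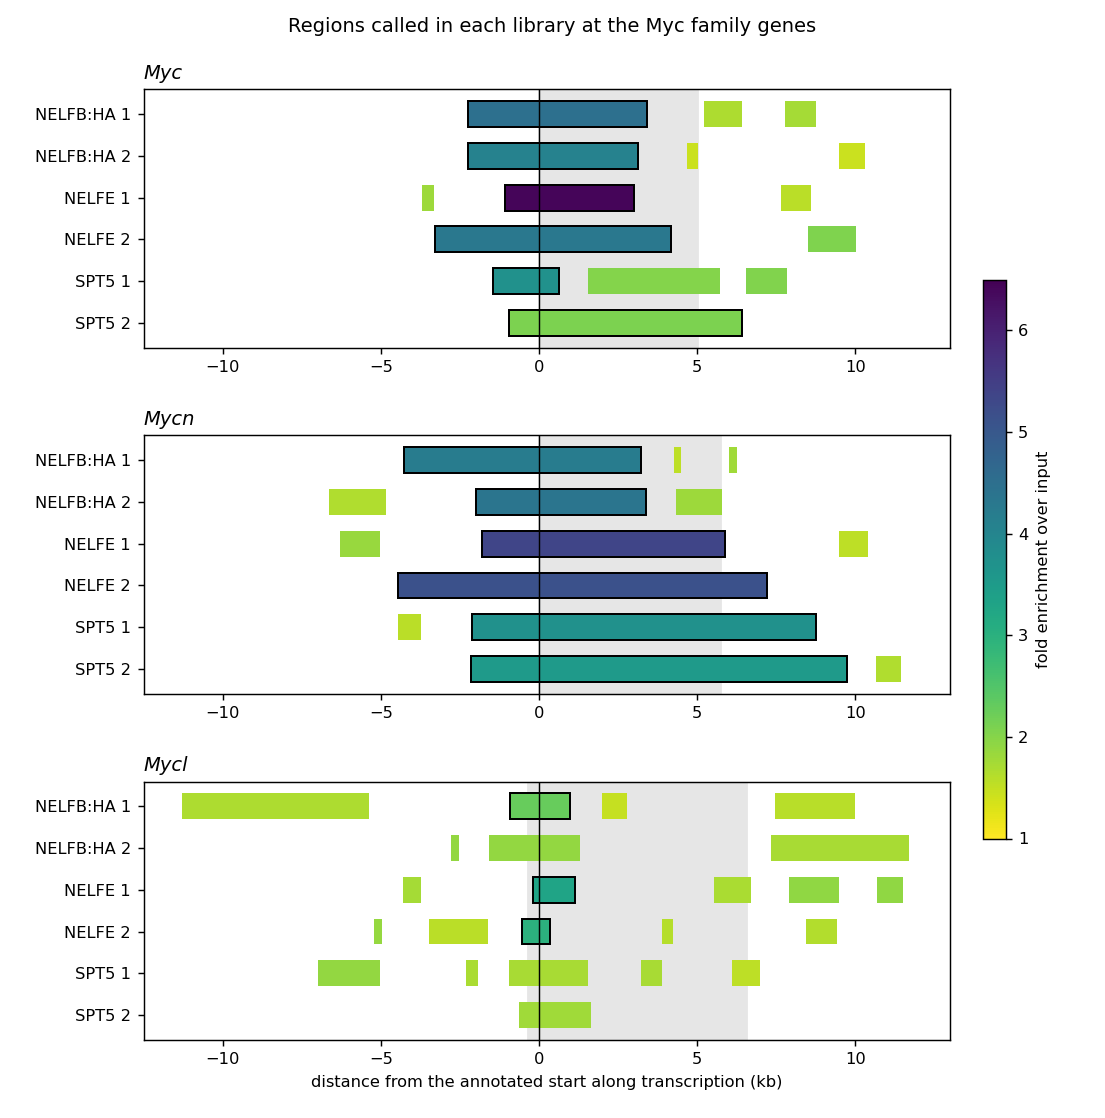
Regions called in each of the 6 libraries at Myc, Mycn and Mycl, by distance in kb from the annotated start along the direction of transcription; colour gives fold enrichment over input, black outlines mark a deposited q-value of 0.01 or less, grey marks the annotated gene, and numbers after the antibody are replicates. The main regions at Mycn run past the 3′ end of the gene in both NELFE and both SPT5 libraries, and those at Mycl stay near the start.

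Lists were set against the same measure over all genes. Of 27026 genes with an annotated start, a region of q 0.01 or less lay within 1 kb of the start in 32.2% and 27.7% in the NELFB:HA lists, 33.4% and 34% in the NELFE lists, and 24% and 27.5% in the SPT5 lists (replicates 1 and 2). Such a region was present in all 6 lists for 21.6% of genes, and Myc and Mycn are among these. Both NELFE lists held one for 31.8% of genes, all 3 family members included. Mycl belongs to the 4.77% of genes with such a region in both NELFE lists and in neither SPT5 list. That combination was not planned, matches the calls at Mycl, and leaves aside NELFB:HA, where the lists differed at Mycl. Library depth ranged from 27324697 to 62312558 filtered ChIP tags and list length from 137102 to 462153 regions. The SPT5 libraries differ from the others in tag length (100 and 101 bp against 50 bp) and tag extension (206 bp against 227 bp). The input also differs, and both SPT5 libraries share it. For every comparison with SPT5 the antibody cannot be told apart from these differences. Filtered input tags also differed between NELFB:HA (38240408 and 38427034) and NELFE (32566070 and 26160905). For comparisons of NELFB:HA with NELFE the antibody cannot be told apart from that difference.

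Myc, the broadly expressed founding member of the family, spans 5021 bp of chromosome 15 from 61985341 to 61990361. The tables used here give no strand for it, and its start was taken as the lower end of the span from textbook knowledge, on which every distance from the start or the 3′ end of Myc rests. In NELFB:HA replicate 1 its main region ran from 61983089 to 61988744, a length of 5656 bp, with a pileup of 36.9, a fold of 4.49 and rank 3997 by pileup among 343503 regions. Replicate 2 gave 61983083 to 61988483, 5401 bp, a pileup of 28.3, a fold of 4.09 and rank 3260 of 447756. The upstream edges of these 2 regions differed by 6 bp in position, at 2252 and 2258 bp before the start.

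NELFE at Myc was more variable in length than in position. Replicate 1 had a region from 61984253 to 61988341, 4089 bp long, with a pileup of 36.6, a fold of 6.43 and rank 4580 of 203679. The region of replicate 2 ran from 61982064 to 61989499 over 7436 bp, with a pileup of 31.6, a fold of 4.30 and rank 5211 of 217115. In the 4 NELF lists the stretch common to all main regions began 1088 bp before the start and ended 3000 bp after it. No NELF main region reached the 3′ end of Myc, and the nearest, in NELFE replicate 2, ended 862 bp short of it.

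SPT5 at Myc was called as separate pieces in 1 library and as 1 piece in the other. In replicate 1 a 2080 bp main region from 61983887 to 61985966 sat over the start, with a pileup of 27.4, a fold of 3.74 and rank 1141 of 462153. Below the q-value threshold it was followed by a region from 61986891 to 61991046 with a fold of 2.01, which ended 685 bp past the 3′ end, and by one from 61991893 to 61993168 with a fold of 2.05. In replicate 2 a single region from 61984382 to 61991766, 7385 bp long, covered the whole gene and ended 1405 bp past it, with a pileup of 22.2, a fold of 2.09 and rank 8431 of 137102. The pileup is a mean over the region, so the rank of Myc in these 2 lists refers to a short stretch at the start in one and to the gene with its flank in the other.

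Mycn, the member best known from neural and early embryonic tissue, spans 5744 bp of chromosome 12 from 12936093 to 12941836 on the minus strand. Its main region in NELFB:HA replicate 1 ran from 12938626 to 12946118, 7493 bp, with a pileup of 38.4, a fold of 4.21 and rank 3760. In replicate 2 it ran from 12938468 to 12943825, 5358 bp, with a pileup of 28.1, a fold of 4.36 and rank 3331. Both ended inside the gene, 3210 and 3368 bp after the start, and short of the 3′ end by 2533 and 2375 bp.

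Both NELFE libraries covered all of Mycn. Replicate 1 had a main region from 12935963 to 12943640, 7678 bp long, with a pileup of 34.9, a fold of 5.38 and rank 4927, which ended 130 bp past the 3′ end. That of replicate 2 ran from 12934618 to 12946287 over 11670 bp, with a pileup of 26.0, a fold of 5.13 and rank 6561, and ended 1475 bp past the 3′ end. By length these regions ranked 50 among the 11234 regions of q 0.01 or less in their list and 7 among 11770.

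SPT5 regions at Mycn were alike in the 2 libraries. In replicate 1 the main region ran from 12933097 to 12943961, 10865 bp, with a pileup of 23.1, a fold of 3.74 and rank 2096, and in replicate 2 from 12932097 to 12943978, 11882 bp, with a pileup of 37.3, a fold of 3.52 and rank 2604. Their upstream edges lay 2125 and 2142 bp before the start and their downstream edges 2996 and 3996 bp past the 3′ end. By length they ranked 449 among 6978 and 377 among 8329 regions of q 0.01 or less. The stretch common to the main regions of all 6 lists was 5015 bp long at Mycn, from 1804 bp before to 3210 bp after the start, and 1585 bp long at Myc, from 959 bp before to 625 bp after it. The Mycn promoter run printed above lies wholly inside that stretch.

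Mycl, a family member with weaker transforming activity, spans 6903 bp of chromosome 4 from 122995588 to 123002490 on the plus strand, with the start used here at 122995931. Its NELFB:HA main regions were 122994997 to 122996900 (1904 bp, fold 2.28, rank 7497) and 122994354 to 122997211 (2858 bp, fold 1.90, rank 8822). The q-value, as −log10, was 2.53 in replicate 1, past the threshold, and 0.622 in replicate 2, short of it.

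In NELFE the Mycl regions were the shortest of the family, at 122995737 to 122997058 (1322 bp, fold 3.28, rank 9856) and 122995390 to 122996291 (902 bp, fold 2.99, rank 8296). Both passed, with −log10 q of 4.27 and 3.92. The SPT5 regions, 122994965 to 122997472 (2508 bp, fold 1.72, rank 19320) and 122995286 to 122997587 (2302 bp, fold 1.79, rank 12452), had −log10 q of 0.123 and 0.486, and neither passed. Each q-value belongs to a whole region. The Mycl main regions that passed were 902, 1322 and 1904 bp long, and those that did not were 2302, 2508 and 2858 bp. The part of region length in these calls was not tested. The stretch common to all 6 lists was 555 bp, from 194 bp before to 360 bp after the start, and every main region ended at least 4903 bp short of the 3′ end. That stretch takes in the last 194 bases of the printed Mycl run. A q-value of 1e-05 or less left no region at Mycl, and all but 1 at Myc and Mycn, where the exception was Myc in SPT5 replicate 2 (−log10 q of 3.33). Among all genes, a region of that q-value lay within 1 kb of the start in 26.6% and 20.5% with NELFB:HA. The shares were 28.5% and 29.0% with NELFE, and 13.8% and 19.5% with SPT5.

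**Figure D2:**
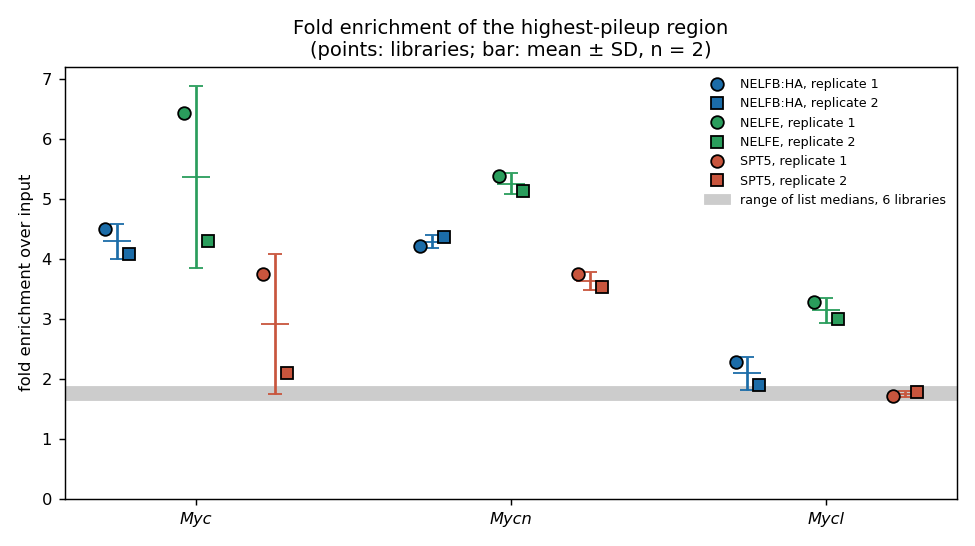
Fold enrichment over input of the main region at each gene (vertical axis) in each library, grouped by antibody, with the mean ± SD of 2 libraries and the range of the list medians in grey. Mycl lies below Myc and Mycn for each antibody, and its SPT5 values lie within the range of list medians.

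The 3 genes were compared within each library, where the scale is shared. Over the 6 libraries fold averaged 4.19 ± 1.40 (SD, n = 6) at Myc, 4.39 ± 0.738 at Mycn and 2.33 ± 0.665 at Mycl. Myc had a higher fold and a stronger rank than Mycl in 6 of 6 libraries, and so had Mycn. On the log10 scale, rank by pileup was 0.44 lower (nearer the top) at Myc than at Mycl (SD of the difference 0.398, n = 6), with an exact two-sided sign-flip permutation p of 0.0313, the smallest that 6 libraries can give (Benjamini-Hochberg adjusted p of 0.0469 over 3 pairs). Between Mycn and Mycl the mean difference was −0.46 (SD 0.311, n = 6), with the same exact p of 0.0313 and adjusted p of 0.0469. Myc and Mycn differed by 0.02 (SD 0.260, n = 6, exact permutation p 0.938, adjusted 0.938), with Myc ranked higher in 4 libraries and of higher fold in 3. Within antibodies, the difference of Myc from Mycl averaged −0.35 with NELFB:HA, −0.27 with NELFE and −0.70 with SPT5, and that of Mycn from Mycl −0.36, −0.20 and −0.82. Among the 4 NELF libraries, which share a tag length, the differences were −0.31 and −0.28 (exact permutation p of 0.125 each, the smallest that 4 libraries can give). Leaving out any 1 library puts the smallest p that can be reached at 0.0625. The 6 libraries come from 3 antibodies on 1 cell line, and the labels do not say whether cultures were separate. These p-values therefore measure agreement among related libraries, not replication across cultures.

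Ranks among the 27026 gene starts gave a scale common to all lists, since the same genes are ranked in each. With NELFB:HA, Myc held rank 4068 in replicate 1 and 3311 in replicate 2, Mycn 3839 and 3386, and Mycl 7072 and 7686. In the NELFE lists Myc held 4539 and 5115, Mycn 4842 and 6273, and Mycl 8418 and 7573. SPT5 gave 1098 and 7434 for Myc, 2052 and 2603 for Mycn, and 9763 and 9120 for Mycl. None of the 3 genes thus stood among the strongest 1000 starts of any list, and the order of Myc and Mycn changed between the NELFB:HA libraries and between the SPT5 libraries.

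**Figure D3:**
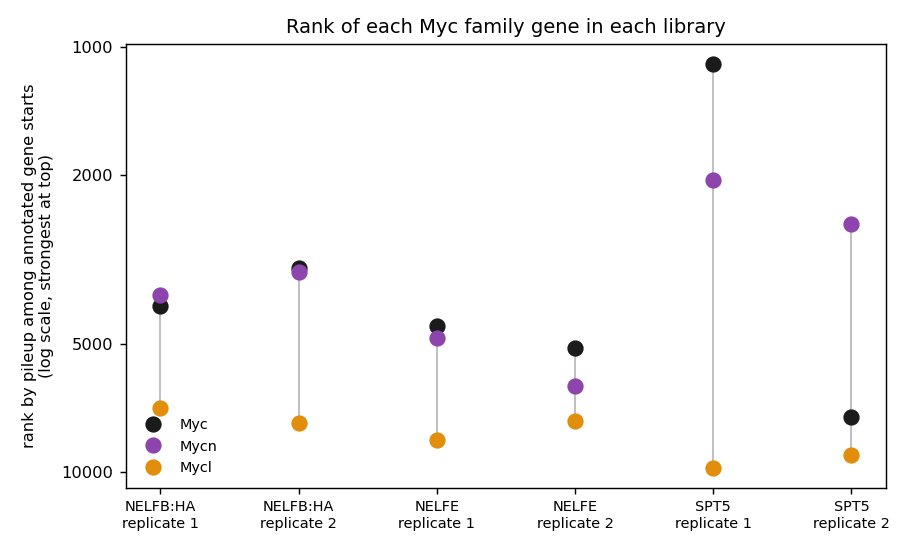
Rank by pileup of Myc, Mycn and Mycl among 27026 annotated gene starts in each library (vertical log axis, strongest at the top). Mycl is lowest in all 6 libraries, and Myc moves from rank 1098 to 7434 between the SPT5 libraries.

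Antibodies were compared gene by gene, with 2 libraries against 2 and 9 comparisons per measure, so the smallest exact p is 0.333 and no test could pass a threshold. At Mycn the longest region was 6426 ± 1510 bp (SD, n = 2) with NELFB:HA, 9674 ± 2823 bp with NELFE and 11374 ± 719 bp with SPT5. The difference of −4948 bp between NELFB:HA and SPT5 exceeded the pooled SD of 1182 bp, and that of −3249 bp between NELFB:HA and NELFE exceeded 2264 bp (each exact permutation p 0.333, adjusted 0.6). The NELFB:HA to NELFE difference was −185 bp without the second replicates and −6312 bp without the first. NELFE and SPT5 overlapped at Mycn, with a difference of −1700 bp smaller than their pooled SD, 2060 bp (exact permutation p 0.667, adjusted 1). Regions covered 47.2% ± 3.82 (SD, n = 2) of the Mycn window with NELFB:HA, 63.7% ± 13.1 with NELFE and 73.8% ± 2.104 with SPT5. NELFB:HA was below SPT5 by a difference of −26.7 percentage points, against a pooled SD of 3.09 (exact permutation p 0.333, adjusted 0.75).

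At Myc the antibodies did not separate by these measures. The longest region averaged 5529 ± 180 bp with NELFB:HA, 5763 ± 2367 bp with NELFE and 5771 ± 2283 bp with SPT5 (SD over 2 libraries, n = 2), and all 3 differences lay inside their pooled SDs (exact permutation p of 1 each). Coverage of the window was 46.0% ± 9.04, 46.6% ± 15.05 and 49.7% ± 0.599. In terms of the gene itself, regions of any strength covered 67.8% and 69.7% of the Myc body with NELFB:HA, 59.8% and 82.8% with NELFE, and 81.6% and 100% with SPT5. The gene body coverage of NELFB:HA lay below that of SPT5 in both libraries, by a difference of −22.0 points (pooled SD 9.25, exact permutation p 0.333, adjusted 1). It was −30.3 points without the first replicates and −13.8 without the second. With regions of q 0.01 or less alone the direction turned, to 8.96 points, because only the short piece at the start passed in SPT5 replicate 1, where body coverage was then 12.5%.

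At Mycl the longest region was not the one over the start in the NELF lists. It was 5905 and 4382 bp with NELFB:HA and 1577 and 1882 bp with NELFE, all weak regions off the start, and 2508 and 2302 bp with SPT5, which were the regions over the start. NELFB:HA exceeded NELFE by 3414 bp (pooled SD 777 bp, exact permutation p 0.333, adjusted 0.6), and with regions of q 0.01 or less the direction turned to −160 bp. The 5905 bp region lies mostly outside the window, and with at least 50% of a region required inside it the difference fell to 1733 bp.

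**Figure D4:**
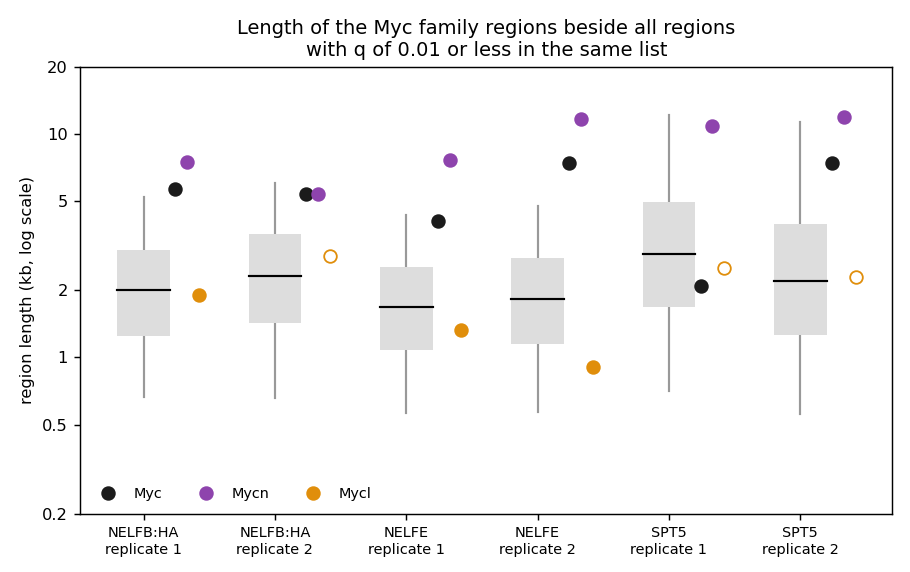
Length in kb (log axis) of the main region at each Myc family gene in each library (points, open where q is above 0.01), beside all regions of q 0.01 or less in the same list (black line, median; box, 25th to 75th percentile; whisker, 5th to 95th). Mycn lies above the 95th percentile in NELFB:HA replicate 1, both NELFE libraries and SPT5 replicate 2, and Myc lies there in NELFB:HA replicate 1 and NELFE replicate 2.

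Pileup was also compared after division by the tags of the smaller of ChIP and input, the depth to which the authors scaled each pair, an alternative added with the data in view. At Mycn it was 1.004 and 0.946 per 1000000 tags with NELFB:HA, 1.07 and 0.994 with NELFE, and 0.844 and 0.732 with SPT5. SPT5 lay below NELFE by 0.244 (pooled SD 0.0675) and below NELFB:HA by 0.187 (pooled SD 0.0631), each at an exact permutation p of 0.333 (adjusted 0.5). Mycl showed 0.600 and 0.490 with NELFB:HA, 0.559 and 0.781 with NELFE, and 0.344 and 0.338 with SPT5, so that both SPT5 libraries lay below all 4 NELF libraries. At Myc, NELFE (1.13 and 1.21) exceeded NELFB:HA (0.965 and 0.955) by 0.206 (pooled SD 0.0413, exact permutation p 0.333, adjusted 0.5), while SPT5 gave 1.001 and 0.436. By log10 rank among gene starts, the directions at Mycn and Myc were opposite. At Mycn NELFE minus SPT5 was 0.377 and NELFB:HA minus SPT5 0.193, so SPT5 ranked nearer the top. At Myc NELFB:HA minus NELFE was −0.118, so NELFB:HA ranked nearer the top. At Mycl SPT5 again ranked lower, with NELFB:HA minus SPT5 at −0.107 and NELFE minus SPT5 at −0.0726. Pileup is a mean over regions of unlike length, and tag extension differed for SPT5. The part of either in these values was not tested.

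How often a main region runs past the 3′ end was then counted over protein-coding genes of 5 to 7 kb, a range of lengths chosen with the data in view. Those counted had an entry in the promoter table and a region of q 0.01 or less at the start. Myc has no entry there and was left out. The main region ran past the 3′ end in 1.04% of 385 such genes and 1.45% of 346 with NELFB:HA. The shares were 0.498% of 402 and 0.966% of 414 with NELFE, and 28.3% of 300 and 24.3% of 345 with SPT5. These are 2 and 4 genes with NELFE and 85 and 84 genes with SPT5, Mycn counted among them in each of these 4 lists. Regions are called from the DNA of both strands, so transcription from the opposite strand or beyond the annotated end cannot be told apart from that of Mycn.

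The wider network was described from 2 lists. The MAX network comprises MAX, the obligate partner, the MXD proteins, MNT and MGA, which pair with MAX in competition with MYC, and MLX with its partners MLXIP and MLXIPL. All 10 genes had an annotated start. A region of q 0.01 or less was present at 7 and 6 of 10 with NELFB:HA, 7 and 10 with NELFE, and 5 and 4 with SPT5, and in all 6 lists at 4 (Mxd1, Mxd3, Mnt and Mga), or 40% of the list against 21.6% of all genes. With the q-value held to 1e-05, the counts were 4 and 4 with NELFB:HA, 6 and 5 with NELFE, and 2 and 4 with SPT5. Shares of all genes with such a region were then 26.6% and 20.5% with NELFB:HA. They were 28.5% and 29.0% with NELFE and 13.8% and 19.5% with SPT5. The strongest by median rank among gene starts was Mxd3 at 3167.5 and the weakest Mxi1 at 8936.5, with Max itself at 7032.5. The median of the list was 6102 against 13858 over all genes.

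MYC targets were represented by 15 genes for ribosome production, metabolism and the cell cycle, of which 11 had an annotated start in the table (Npm1, Ccnd2, Fbl and Bop1 had no entry). Of the 11, regions of q 0.01 or less were found at 10 in each NELFB:HA and each SPT5 list and at 11 in each NELFE list. They were present in all 6 lists at 10 genes, or 90.9% against 21.6% of all genes, the exception being Tert, the telomerase subunit, with 2 lists. Ncl, which encodes nucleolin, was the strongest, with ranks of 4 and 19 with NELFB:HA, 29 and 118 with NELFE, and 1396 and 1398 with SPT5. Tert was the weakest, at a median rank of 9378.5. The median of the list was 2875, and Myc (median 4303.5), Mycn (3612.5) and Mycl (8052) fell inside the range of the targets, whose weak end is set by Tert. With the q-value held to 1e-05, the count was 10 in each NELFB:HA and NELFE list. It was 5 in SPT5 replicate 1 and 8 in SPT5 replicate 2. Shares of all genes at that q-value were 26.6% and 20.5% with NELFB:HA and 28.5% and 29.0% with NELFE. With SPT5 they were 13.8% and 19.5%.

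**Figure D5:**
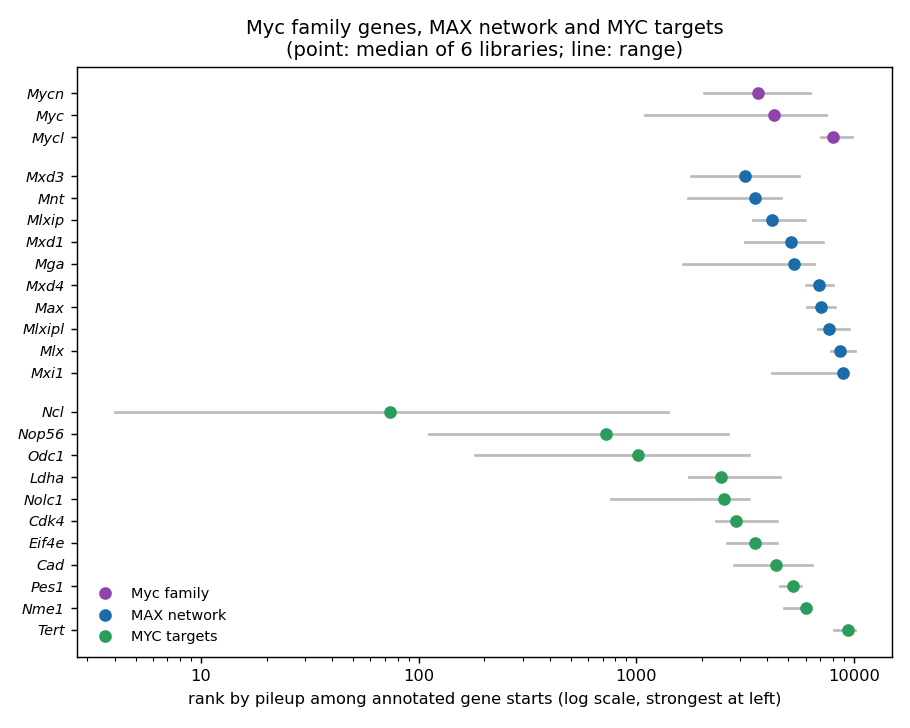
Rank by pileup among 27026 annotated gene starts (horizontal log axis, strongest at the left) for the Myc family, the MAX network and MYC targets, as the median of 6 libraries with the range. Ncl reaches rank 4 in one library, and Mycl lies with the weaker members of the MAX network.

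Genes whose ranks by pileup over the 6 lists were nearest to those of each member were found by Euclidean distance of log10 rank, among 10609 genes with a region at the start in every list. Nearest to Mycn was Sox2, a core pluripotency factor, at a distance of 0.111 against a median of 1.01 over all genes. The Sox2 ranks were 3907 and 3999 with NELFB:HA, 5045 and 5882 with NELFE, and 2389 and 2557 with SPT5. Helq and Mrps18c followed at 0.148 each, with identical ranks because 1 region covers both starts. Myc was nearest to Ung (0.191), which encodes a uracil-DNA glycosylase, then Cul7 (0.199) and Cyria (0.203), against a median of 1.13. For Mycl the nearest were Zfp763 (0.0825), Mon1b (0.0979) and Pqlc3 (0.105), against a median of 1.08. These are likenesses over 6 libraries that share cells and, in part, depth, and they carry no test.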

How the data were processed

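Peaks were called on each ChIP library against an input with MACS 2.1.1.20160309 in broad mode, without pooling replicates, at p-value cutoffs of 0.01 (strong) and 0.1 (weak), per the file headers. Bowtie2, deepTools and the build mm10 are named in the submitters' processing notes. The deposited pileup signal is mean ChIP coverage, with the deeper of each ChIP and input pair scaled down to the other and 1 tag kept per position, per the file headers. The deposited fold enrichment is the ratio to local input background, and the deposited significance columns hold a −log10 p-value and a −log10 q-value for each region. The headers announce that no q-value is computed, yet no entry in that column is negative, and it was used as the authors' q-value. Groups and replicate numbers come from the sample titles.

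Rank 1 is the highest pileup in a list, and lists differ in length, so a rank in a list shows no change between libraries. Regions were assigned to genes with the RefSeq table (GRCm38.p6), within 1 kb of a start, and the Myc start is the lower end of its annotated span. Tests were exact permutations with Benjamini-Hochberg adjustment (Python 3.11.15, SciPy 1.17.1), and functions were tested on simulated data. Members are named whatever their values. The 3 genes nearest in pattern and the strongest and weakest gene of each list are named by rule. Members and lists were chosen with earlier results of these data known. Alternatives were other ranking columns, q-value thresholds, overlaps, windows and replicates left out.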

Additional observations from a re-analysis of the deposited data

How the results depend on the processing

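Of 348 alternatives for 75 results, 239 kept direction and side of the threshold or moved by less than the replicate error, 32 reversed, 14 lost significance and 63 moved. Some of the 63 and some of the 239 changed sign when 1 replicate number was left out. For example, the Myc length difference of NELFB:HA minus SPT5, among the 63, went from −242 to 1500 bp without replicate 2. Among the 239, NELFE minus SPT5 in log10 rank at Myc went from 0.20 to −0.21 without replicate 1. The 239 include the replicate block, which cannot change a difference. Antibody differences rest on 2 libraries each, so an unchanged exact test shows no stability. At Mycl, NELFB:HA replicate 1 (41312333 ChIP tags) gave a call at q 0.01 and replicate 2 (29656999) gave none. NELFE replicate 2 (28944909) gave a call and SPT5 replicate 2 (62312558) gave none. The part of depth in these calls was not tested. Except where stated, the cause was not tested. In log10 rank at Myc, NELFB:HA minus SPT5 (0.0659) reversed to −0.0668 by fold, −0.0053 by −log10 p, −2.25 as a percentile of the list and −0.49 for the longest region, and NELFE minus SPT5 (0.20) reversed to −0.87 as a percentile and −0.35 for the longest region. At Mycn, NELFB:HA minus SPT5 (0.18) reversed to −0.26 as a percentile. At Mycl, NELFB:HA minus NELFE (−0.05) reversed to 0.47 by fold, 0.16 by −log10 p and 0.15 for the longest region, and for the longest region NELFB:HA minus SPT5 reversed to 1.02 and NELFE minus SPT5 to 0.87, since that region lies off the start. In length, q-values of 0.01 and 1e-05 reversed Myc NELFB:HA minus SPT5 (−242 bp) to 796 and 4488.5 bp and NELFE minus SPT5 (−8 bp) to 1030 and 4722.5 bp, and q 0.01 reversed Mycl NELFB:HA minus NELFE to −160 bp and NELFE minus SPT5 to 1112 bp, because weak regions drop out. In window coverage, Myc NELFB:HA minus NELFE (−0.57 points) reversed to 4.84 with the window shortened and 4.61 with it extended by 2 kb at each end. The q-values of 0.01 and 1e-05 reversed coverage at Myc for NELFB:HA minus SPT5 to 5.31 and 29.9 and for NELFE minus SPT5 to 6.87 and 31.5, and q 0.01 reversed Mycl NELFB:HA minus NELFE to −0.89. Gene body coverage at q 0.01 reversed at Myc to 8.96 (NELFB:HA minus SPT5) and 15.1 (NELFE minus SPT5), and at Mycl to −5.16 (NELFB:HA minus NELFE), 9.51 (NELFB:HA minus SPT5) and 14.7 (NELFE minus SPT5). The regions of q 0.01 at Mycl fell from 3 to 0 at 1e-05.

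In the 4 NELF libraries alone, Myc minus Mycn reversed to −0.0286, and Myc minus Mycl (−0.31) and Mycn minus Mycl (−0.28) no longer passed (adjusted exact permutation p of 0.188 each), where the smallest possible p is 0.125. Without 1 library these 2 ranged from −0.49 to −0.28 and from −0.53 to −0.36 and could not pass, and Myc minus Mycn ranged from −0.0757 to 0.0791, changing sign without SPT5 replicate 2. Without 1 replicate number, log10 rank differences ranged at Myc from −0.20 to −0.0591 for NELFB:HA minus NELFE, from −0.41 to 0.54 for NELFB:HA minus SPT5 and from −0.21 to 0.60 for NELFE minus SPT5. At Mycn they ranged from −0.29 to −0.12, 0.11 to 0.25 and 0.37 to 0.40 in that order, and at Mycl from −0.12 to 0.0267, −0.41 to −0.15 and −0.29 to −0.18. Length differences ranged from −2035 to 1567, −1984 to 1500 and −67 to 51 bp at Myc, −6312 to −185, −6524 to −3372 and −3187 to −212 bp at Mycn, and 2500 to 4328, 2080 to 3397 and −931 to −420 bp at Mycl. Coverage differences ranged from −17.6 to 16.5, −9.65 to 2.29 and −14.2 to 7.96 points at Myc, −28.5 to −4.57, −30.8 to −22.5 and −17.9 to −2.39 at Mycn, and 1.76 to 17.7, 2.47 to 28.8 and 0.717 to 11.1 at Mycl. The replicate block leaves each difference as it is, such as −4948 bp for NELFB:HA minus SPT5 at Mycn (exact permutation p of 0.5 over 2 pairs, the smallest possible). Same-numbered libraries did not deviate together, with correlations of −0.0309 to −0.00852 over 10612 genes, and there was no call between antibodies for the block to change.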

Other observations

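Neighbouring genes with an annotated start within 100 kb of the windows gave a view of how local the occupancy was at Mycl and Mycn. The promoter table gave no neighbour for Myc. That table lacks some genes, Myc itself included, so the surroundings of Myc are not described. Trit1, which encodes a tRNA-modifying enzyme and starts 20.7 kb from the Mycl start, had a region of q 0.01 or less at its start in 6 of 6 lists, with folds of 5.71 and 2.79 with NELFB:HA, 6.23 and 5.63 with NELFE, and 3.85 and 2.99 with SPT5. Its fold exceeded that of Mycl in every list, and it ranked 1303 and 2857 among gene starts with SPT5, where Mycl ranked 9763 and 9120. Beyond Trit1, on the same side of Mycl, the lncRNA gene Gm12923 at 97.8 kb and Bmp8b at 109 kb had such a region in 0 lists, and so had Mfsd2a, a lipid transporter gene at 34.7 kb on the other side. Near Mycn, the lncRNA gene Gm35208 at 45.5 kb also had a region of q 0.01 or less in 0 lists. These neighbours were taken by distance and carry no test.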
